A study of Mus musculus with 4 samples.

Results

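The genes described here encode proteins of the acrosome, the ADAM (a disintegrin and metalloprotease) family and the proteases of sperm-egg interaction. They were chosen by symbol, as all listed genes whose names begin with Spaca, Acrbp, Acrv, Izumo, Zpbp, Zp3r, Spam, Hyal, Spesp, Prss, Tmprss, Pcsk, Lyzl or Plcz, with Adam and a digit, or are Acr, Zan or Ace. The rule matched 36 of the 8699 genes in the deposited tables, and 97 other symbols that it matches in the gene name table, Acr, Spam1 and Acrv1 among them, were not analysed here. RNA was sequenced from the spermatozoa of mice of the inbred strain C57BL/6J, adults of about 11 weeks, that had received nicotine, the main alkaloid of tobacco, or saline, with 2 libraries per group. Per the labels, the cells were pressed out of the nicked cauda epididymidis, the storage end of the sperm duct, and no step that removes other cells is described. The dose, route and duration of exposure are not stated in the sources at hand. Nor is it stated whether each library comes from its own animal, so p-values reflect the spread of these samples alone, and that spread may be technical.

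The acrosome is the secretory vesicle that caps the sperm head and holds enzymes and matrix proteins released at the egg coat. Several ADAM proteins are made by spermatids, are cleaved as sperm mature, and serve passage through the oviduct and binding to the zona pellucida, the coat of the egg. Other ADAM proteins are sheddases or adhesion proteins of many tissues. Sperm make little or no RNA of their own, so sperm RNA is largely carried over from spermatids. By their known site of action, 23 of the 36 genes were grouped as germ cell genes: 5 acrosome proteins, 5 proteins of sperm-egg interaction, 8 germ cell ADAMs and 5 germ cell proteases. The other 13 were 9 ADAMs and 4 proteases that act in other tissues. This grouping was made with earlier results of these data known.

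In every library Lars2 and Gm42418 held most reads (90.6% and 77.5% in nicotine replicates 1 and 2, 74.9% and 75.8% in saline replicates 1 and 2). Reads outside this pair numbered 358477 and 1176304 in the nicotine libraries and 1002360 and 931578 in the saline libraries, so nicotine replicate 1 was the shallowest. Median reads per listed gene were 8 and 37 with nicotine and 44 and 40 with saline. All 16 spermatid markers listed had reads in every library, and their summed level, in CPM (reads scaled to a common library size with edgeR's TMM factors), was 15400 and 10200 with nicotine and 2820 and 2360 with saline. Markers of connective tissue (17 of 20 listed) summed to 647 and 1480 CPM with nicotine and 4460 and 2080 with saline, with Lum at 0 reads in nicotine replicate 1 and saline replicate 2. Leukocyte markers (12 of 20 listed) summed to 85.2 and 75.2 CPM with nicotine, where Cd14 and Cd68 had 0 reads in replicate 1, and 175.4 and 199.9 with saline. Crisp1 held most of the summed level of the epididymal epithelium markers (13 of 28 listed). These markers summed to 1309.9 and 3625.9 CPM with nicotine and 1004.1 and 2664.8 with saline. As a share of reads outside the pair they lay the other way within each replicate number, at 0.450% and 1.79% with nicotine and 0.673% and 1.82% with saline. The spermatid, connective tissue and leukocyte markers thus differed between groups along with the genes below, and their part in the results was not tested. In bulk RNA, fewer cells of a type and less RNA per cell cannot be told apart.

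RefSeq promoter windows (GRCm38.p6) were found for 23 of the 36 genes, and for 3 of the 9 genes that were higher with nicotine, Ace, Lyzl4 and Zan. The 250 bases before the start are shown for these, because they are the windows at hand for genes that moved together and because Ace has a pair of starts. Capitals mark TGACG, a core of the cyclic AMP response element through which spermatid genes can be switched on, or TATAAA, the TATA box, on either strand.
Ace, upstream start, chr11:105967698-105967947, plus strand: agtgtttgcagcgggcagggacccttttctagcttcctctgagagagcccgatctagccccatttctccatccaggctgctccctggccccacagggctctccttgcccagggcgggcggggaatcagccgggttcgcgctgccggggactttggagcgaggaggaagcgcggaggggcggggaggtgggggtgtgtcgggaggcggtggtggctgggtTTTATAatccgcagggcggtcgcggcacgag
Ace, downstream start, chr11:105974939-105975188, plus strand: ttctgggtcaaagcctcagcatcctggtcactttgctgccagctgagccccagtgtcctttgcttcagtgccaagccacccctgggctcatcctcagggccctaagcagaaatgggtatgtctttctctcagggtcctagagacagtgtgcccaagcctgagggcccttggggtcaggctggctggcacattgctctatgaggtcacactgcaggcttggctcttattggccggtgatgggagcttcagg
Lyzl4, the start with TGACG nearby, chr9:121586962-121587211, minus strand: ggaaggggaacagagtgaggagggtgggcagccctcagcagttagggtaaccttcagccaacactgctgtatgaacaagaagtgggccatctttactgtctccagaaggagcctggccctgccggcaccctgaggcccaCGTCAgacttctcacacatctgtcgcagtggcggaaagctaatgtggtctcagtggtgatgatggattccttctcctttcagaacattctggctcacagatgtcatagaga
Zan, chr5:137477065-137477314, minus strand: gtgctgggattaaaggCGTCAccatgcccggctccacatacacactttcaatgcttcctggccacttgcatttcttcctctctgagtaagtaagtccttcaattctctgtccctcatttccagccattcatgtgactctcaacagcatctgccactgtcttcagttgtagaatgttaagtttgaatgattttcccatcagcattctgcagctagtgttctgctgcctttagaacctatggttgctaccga
The Ace starts lay 7241 bases apart. The shorter testis form of angiotensin-converting enzyme is known to start inside the gene, and reads counted per gene cannot separate it from the somatic form. The upstream Ace window held TATAAA on the opposite strand, 31 bases before the start, and the downstream window held no exact match to either motif. Only exact matches were sought, so variants of these motifs would be missed. TGACG lay on the opposite strand 111 bases before the start in this Lyzl4 window, one of 3 for the gene, and 234 bases before the start in Zan. The other Lyzl4 windows, which are not shown, held neither motif. Of all 32851 windows 17.8% held TGACG on either strand, and of the 26 windows of these genes 5 did (19.2%). TATAAA stood in 12.4% of all windows and in 1 of the 26. The motifs do not overlap each other, and a match is a description of letters only.

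The comparison of nicotine with saline asks how sperm RNA differs after nicotine exposure. Of the 19 tested germ cell genes 9 rose and 0 fell, and of the 11 tested genes of other tissues 0 rose or fell. The 9 were Lyzl4, Plcz1, Zan, Adam3, Adam5, Adam18, Adam32, Ace and Pcsk4. Of all 8375 tested genes, 8.27% were called higher and 0.931% lower (edgeR's quasi-likelihood test, adjusted p under 0.05). A filter on low counts removed 6 of the 36 genes (Adam1a, Adam25, Prss37, Prss55, Adam8 and Adam11), and a gene that passes it through its high group alone is favoured. Without the filter the same 9 genes of 36 were called higher and 0 lower, against 7.59% and 0.851% of all genes. The median log2 fold change was 1.90 over the 19 tested germ cell genes, -0.44 over the 11 of other tissues and -0.14 over all tested genes. Of the 11 genes of other tissues 0 had an unadjusted p under 0.05, as 23.7% of all tested genes did. DESeq2 called 9 of the 30 tested genes higher, against 10.8% of all, and limma-voom 11, against 9.15%. Both called 0 of the 30 lower, against 0.931% of all genes by DESeq2 and 0.549% by limma-voom, and 0 genes of other tissues higher.

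The calls needed both saline libraries and depended on how libraries were scaled. Without saline replicate 1, 0 of the 33 genes then tested passed (0.152% of all genes were higher and 0.303% lower), although the 9 log2 fold changes lay from 1.76 to 4.91. Without saline replicate 2, 0 of 33 passed (0.0% and 0.104% of all genes), with log2 fold changes from 1.65 to 3.56. Without nicotine replicate 1, 12 were higher and Adam8 was lower, against 10.8% and 3.29% of all genes. Without nicotine replicate 2, 15 were higher and Adam10 was lower, against 17.8% and 9.67% of all genes. Scaling by all reads moved the median of all genes to -1.28 and scaling by reads outside Lars2 and Gm42418 to -0.77, and 0 of the 30 tested genes were called with either (0.0% of all genes were higher, and 0.107% and 0.0% lower). With libraries scaled to the spermatid markers, a setting chosen after seeing the data, the median of all genes was -2.18, the germ cell median was -0.19, 0 germ cell genes were called, and all 11 tested genes of other tissues were called lower, against 0.215% of all genes higher and 71.9% lower. The distance of the germ cell median from the median of all genes changed less, from 1.47 to 2.41 over 13 settings. A new scaling shifts all genes by nearly the same amount, so it could hardly change this distance. The distance therefore does not show that the rise holds under other scalings. Quantile normalisation gave smaller log2 fold changes for the 9 genes, from 1.26 to 2.31.

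**Figure D1:**
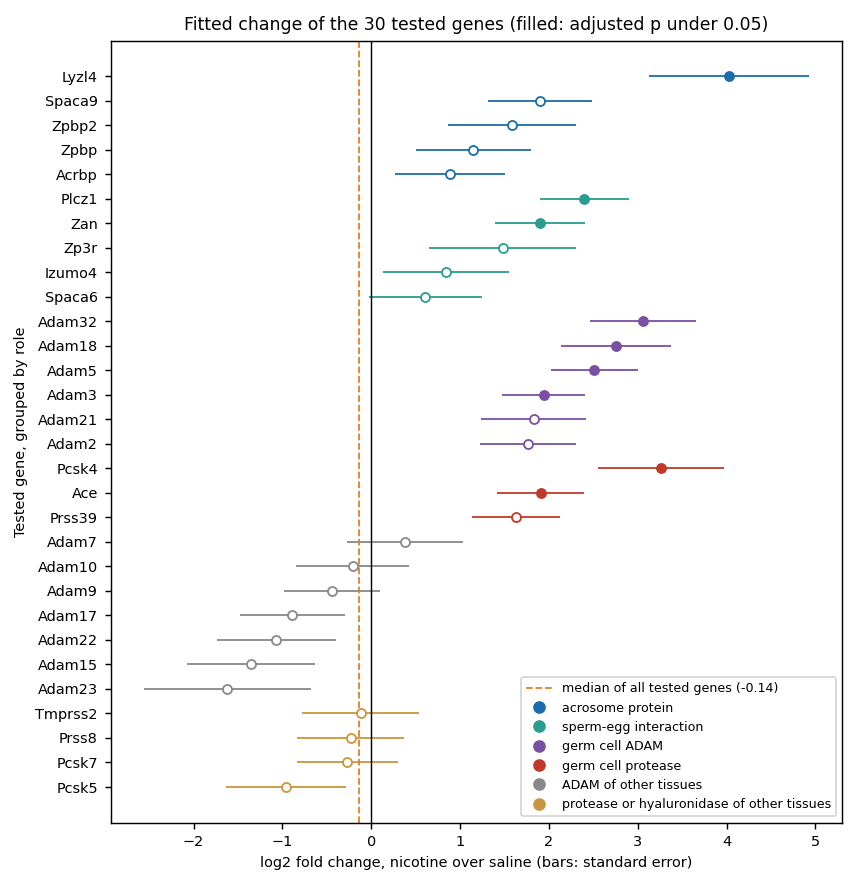
Fitted log2 fold change (horizontal axis, nicotine over saline, bars are the standard error) of the 30 tested genes, in rows grouped and coloured by role, with filled points for an adjusted p under 0.05. The 9 filled points, from Zan at 1.90 to Lyzl4 at 4.03, are all germ cell genes, and the 11 genes of other tissues lie from -1.62 to 0.38.

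Shares of reads within each library were set beside these fits. The 23 germ cell genes together had 623 and 2038 reads with nicotine and 753 and 549 with saline. As a share of reads outside the Lars2 and Gm42418 pair this was 0.174% (exact Clopper-Pearson 95% interval 0.16 to 0.188%) in nicotine replicate 1 and 0.173% (0.166 to 0.181%) in nicotine replicate 2. It was 0.0751% (0.0699 to 0.0807%) in saline replicate 1 and 0.0589% (0.0541 to 0.0641%) in saline replicate 2. Both nicotine libraries thus lay above both saline libraries, beyond counting error. The 12 genes of other tissues apart from Adam7 lay the other way, at 0.0131% and 0.0246% with nicotine and 0.0508% and 0.0484% with saline. Adam7 held most reads of the genes of other tissues in every library. With it their shares overlapped between groups, at 0.0745% and 0.253% with nicotine and 0.139% and 0.295% with saline. For each read on the 12 genes without Adam7, germ cell genes had 13.3 and 7.05 reads with nicotine and 1.48 and 1.22 with saline. Set against spermatid markers the groups lay close, with both nicotine libraries slightly below both saline libraries. Per 100 spermatid marker reads there were 3.27 and 3.46 germ cell reads with nicotine, and 3.97 and 3.66 with saline.

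**Figure D2:**
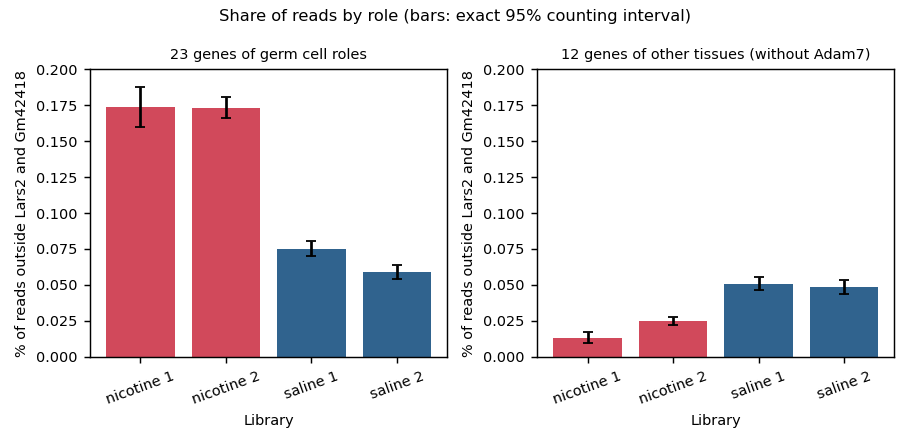
Share of each library, counted without Lars2 and Gm42418 (vertical axis, percent of reads, bars with the exact 95% counting interval) in each library, for the 23 germ cell genes (left) and for 12 genes of other tissues without Adam7 (right). The germ cell share is 0.174% and 0.173% with nicotine and 0.0751% and 0.0589% with saline. The other share is lower with nicotine when Adam7 is left out, and overlaps between groups when it is included.

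Among acrosome proteins 1 of 5 tested genes rose, a count too small to set apart from the 8.27% of all tested genes. Lyzl4 (ENSMUSG00000032530), a lysozyme-like protein of sperm, had 11 and 19 reads with nicotine and 3 and 1 with saline, the lowest read number of the called genes. Its level per length (RPKM, the CPM per kilobase of gene length) was 6.94 and 2.55 with nicotine and 0.347 and 0.122 with saline, and the groups did not overlap. It rose by 4.03 ± 0.90 on the log2 scale (standard error, n = 2 per group, edgeR adjusted p = 0.0329), the highest of the 30 values in this fit. The value was 3.36 without nicotine replicate 1, 4.83 without nicotine replicate 2 and 4.91 without saline replicate 1, and with quantile normalisation it was 1.79, below Adam32 at 2.31. From the group totals its ratio was 13.9 with a 95% counting interval of 4.91 to 54.4, and limma-voom did not call it (adjusted p = 0.0873).

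Spaca9, a protein of the acrosome and of ciliary microtubules, was the most abundant acrosome gene per length, with 23.9 and 15.5 RPKM with nicotine and 7.18 and 2.95 with saline. Both nicotine values lay above both saline values, and its log2 fold change of 1.90 ± 0.59 missed the threshold by edgeR (adjusted p = 0.0716) and passed by limma-voom (adjusted p = 0.0469). Zpbp2 and Zpbp, paralogues that bind the zona pellucida from the acrosomal matrix, had only 4 and 3 reads in nicotine replicate 1. Zpbp2 had 1.93 and 3.28 RPKM with nicotine and 0.442 and 1.40 with saline (1.59 ± 0.72, adjusted p = 0.215), and its groups stood apart. Zpbp had 0.573 and 1.58 RPKM with nicotine and 0.596 and 0.482 with saline, so its groups overlapped (1.15 ± 0.65, adjusted p = 0.317). Acrbp, which binds the zymogen proacrosin and holds it in the acrosome, had 0.991 and 1.84 RPKM with nicotine and 0.727 and 0.913 with saline (0.89 ± 0.62, adjusted p = 0.420). In GENCODE M21 29.8% of its 35-base words also occur in other genes, Gm44597 the most, so its reads are uncertain.

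Of the proteins that meet the egg 2 of 5 tested genes rose, beside 8.27% of all. Plcz1 (ENSMUSG00000030230), the sperm phospholipase C that starts calcium waves in the egg, had 13.9 and 9.89 RPKM with nicotine and 2.49 and 1.95 with saline. It rose by 2.40 ± 0.50 on the log2 scale (n = 2 per group, adjusted p = 0.0329). Its groups stood well apart, on 43 and 144 reads with nicotine and 42 and 31 with saline. Zan (ENSMUSG00000079173), which encodes zonadhesin, a large acrosomal protein of species-specific zona binding, had 0.819 and 0.627 RPKM with nicotine and 0.173 and 0.207 with saline. It rose by 1.90 ± 0.51 (adjusted p = 0.0460), nearest the threshold among the called genes, and within each group its libraries lay close.

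The rest of this role did not pass. Izumo4, of the family of the fusion protein Izumo1, had 14.7 and 3.68 RPKM with nicotine and 4.92 and 4.03 with saline. Nicotine replicate 1 alone was high, on 17 reads, and the log2 fold change was 0.84 ± 0.71 (adjusted p = 0.516). Spaca6, needed for fusion of sperm and egg membranes, had 1.29 and 0.525 RPKM with nicotine and 0.583 and 0.480 with saline (0.61 ± 0.64, adjusted p = 0.614). Zp3r, an acrosomal matrix protein that binds the zona, had 2.68 and 1.22 RPKM with nicotine and 0.983 and 0.223 with saline (1.48 ± 0.83, adjusted p = 0.311). The groups of Zp3r did not overlap, while those of Spaca6 did.

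The germ cell ADAMs were the role with the most calls: 4 of 6 tested genes rose, beside 8.27% of all, and Adam1a and Adam25 were not tested. Adam5 (ENSMUSG00000031554), a testis ADAM, had 101 and 344 reads with nicotine and 93 and 69 with saline. Its level was 26.2 and 19.0 RPKM with nicotine and 4.43 and 3.47 with saline, a rise of 2.51 ± 0.49 on the log2 scale (n = 2 per group, adjusted p = 0.0329). Only Adam7 had a higher mean level among the 36 genes. Adam32 (ENSMUSG00000037437), another testis ADAM, had 18.7 and 7.84 RPKM with nicotine and 1.94 and 1.16 with saline, a rise of 3.06 ± 0.60 (adjusted p = 0.0329). Its nicotine libraries differed more than those of Adam5, and both lay above the saline libraries. Its value was 2.35 without nicotine replicate 1 and 3.66 without nicotine replicate 2. Adam3 (ENSMUSG00000031553), known as cyritestin and needed for zona binding and passage into the oviduct, had 9.94 and 12.1 RPKM with nicotine and 3.14 and 2.63 with saline, a rise of 1.94 ± 0.47 (adjusted p = 0.0353). Adam18 (ENSMUSG00000031552), also of the testis, had 5.16 and 3.21 RPKM with nicotine and 0.631 and 0.534 with saline, a rise of 2.76 ± 0.62 (adjusted p = 0.0329). Adam3 was the single gene of the 9 that was higher in nicotine replicate 2 than in nicotine replicate 1. The other 8 were higher in nicotine replicate 1, as were 636 of all 693 called higher genes.

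Adam2 and Adam21 missed the threshold by edgeR, with groups that did not overlap. Adam2, the beta subunit of fertilin, which pairs with other ADAM proteins on sperm, had 5.41 and 4.06 RPKM with nicotine and 1.58 and 1.11 with saline (1.77 ± 0.54, adjusted p = 0.0677). It passed by limma-voom (adjusted p = 0.0436) and with quantile normalisation (limma adjusted p = 0.0485), and not by DESeq2 (adjusted p = 0.0678). Adam21, a further testis ADAM, had 3.62 and 2.78 RPKM with nicotine and 0.614 and 1.14 with saline (1.83 ± 0.59, adjusted p = 0.0820). For this pair of genes of zona binding, Adam3 and Adam2, there were 2.12 and 3.45 Adam3 reads per Adam2 read with nicotine and 2.30 and 2.72 with saline, so the ratio overlapped between groups. Adam1a, the alpha subunit of fertilin, had 12 and 9 reads with nicotine and 6 and 3 with saline, a scaled ratio of 4.34 (95% counting interval 1.90 to 10.8). Adam25, a testis ADAM, had 9 and 6 reads with nicotine and 6 and 1 with saline, a ratio of 3.98 (1.53 to 11.5). Of their 35-base words 78.2% for Adam1a and 44.6% for Adam25 also occur in other genes, so both are uncertain.

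The 4 called ADAM genes are neighbours on chromosome 8, which was noticed after their values were seen. In RefSeq's GRCm38.p6 order the protein-coding genes run Ido1, Adam18, Adam3, Adam5, Adam32, Adam9, Tm2d2. Ido1 had -0.81 ± 0.52 on the log2 scale (adjusted p = 0.380), Adam9 -0.44 ± 0.54 (adjusted p = 0.667) and Tm2d2 -0.50 ± 0.73 (adjusted p = 0.728). Adam9 is a metalloprotease of many tissues, and it had 5 and 38 reads with nicotine and 48 and 52 with saline. Adam32, the gene next to it, had 69 and 136 reads with nicotine and 39 and 22 with saline. Per Adam9 read there were 13.8 and 3.58 Adam32 reads with nicotine and 0.812 and 0.423 with saline, which do not overlap. An exact two-sided permutation test of this ratio gave p = 0.333, the smallest that 2 libraries against 2 allow. With ratios that do not overlap no other p was possible, so the test adds nothing to them. At most 3.23% of the 35-base words of Adam3, and fewer of those of Adam5, Adam18 and Adam32, occur in another gene.

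**Figure D3:**
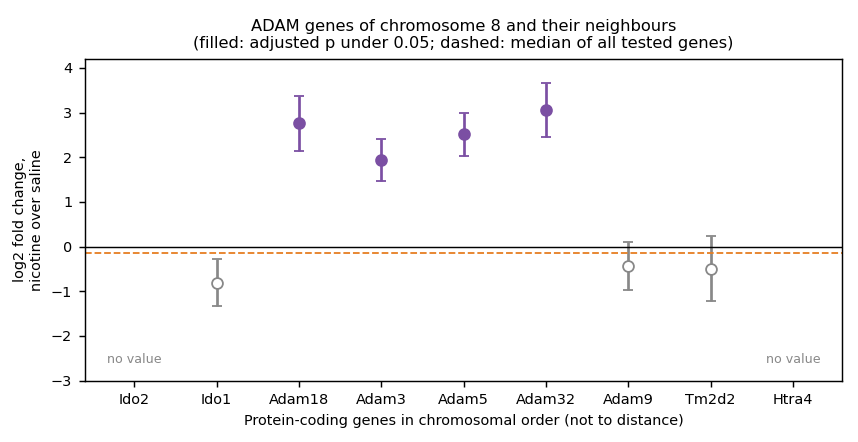
Log2 fold change (vertical axis, nicotine over saline, bars are the standard error) of protein-coding genes in their order along part of chromosome 8, not drawn to distance, with the median of all tested genes at -0.14 dashed. Adam18, Adam3, Adam5 and Adam32 lie from 1.94 to 3.06, while Ido1, Adam9 and Tm2d2 on either side lie below 0.

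Of the germ cell proteases 2 of 3 tested genes rose, beside 8.27% of all. Pcsk4 (ENSMUSG00000020131), the proprotein convertase of spermatids, whose loss is known to lower male fertility in mice, had 5.49 and 2.51 RPKM with nicotine and 0.554 and 0.213 with saline. It rose by 3.26 ± 0.71 on the log2 scale (n = 2 per group, adjusted p = 0.0329), on 20 and 43 reads with nicotine and 11 and 4 with saline. The value was 4.09 without saline replicate 1 and 3.88 without nicotine replicate 2. It was lower, at 2.74, without saline replicate 2 and, at 2.70, without nicotine replicate 1. Ace (ENSMUSG00000020681), angiotensin-converting enzyme, had 21.8 and 16.7 RPKM with nicotine and 6.03 and 4.17 with saline. It rose by 1.91 ± 0.49 (adjusted p = 0.0383). Its libraries lay close within each group and apart between groups, and with quantile normalisation Ace did not pass (limma adjusted p = 0.0731).

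Prss39, a serine protease of the acrosome also called TESP1, had 12.2 and 20.4 RPKM with nicotine and 5.58 and 5.20 with saline. Its groups stood apart, and it missed the threshold by edgeR (1.63 ± 0.49, adjusted p = 0.0655) and passed by limma-voom (adjusted p = 0.0397). Prss37, a serine protease homologue needed for the maturation of ADAM3 in mice, had 18 and 2 reads with nicotine and 2 and 1 with saline. Its scaled ratio was 12.4 with a 95% counting interval of 3.67 to 65.1, but most of its reads lay in 1 library, nicotine replicate 1. Prss55, a sperm membrane protease, had 9 and 5 reads with nicotine and 7 and 2 with saline, a ratio of 2.89 (1.17 to 7.57). The groups of Prss55 overlapped in scaled level, with 0.862 CPM in nicotine replicate 2 and 1.04 in saline replicate 1. These intervals cover counting error only, and neither gene was tested.

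Of all 36 genes, 35 had reads in every library, and the 23 germ cell genes all did, as nearly all listed genes did. Of the 8699 listed genes, 317 and 11 had 0 reads in nicotine replicates 1 and 2, and 2 and 13 in saline replicates 1 and 2. In 19 of the 23 both nicotine libraries were above both saline libraries in scaled level, 16 of them among the tested genes. Over all tested genes that order held for 27.4%, and the opposite for 31.0%. Within the germ cell roles the log2 fold changes of the 19 tested genes ran from 0.61 for Spaca6 to 4.03 for Lyzl4. In mean nicotine level the first germ cell genes were Adam5, Spaca9, Ace and Prss39, with 22.6, 19.7, 19.3 and 16.3 RPKM, and neighbours in this order differed by less than their SD of 5.12, 5.96, 3.58 and 5.84 (n = 2).

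**Figure D4:**
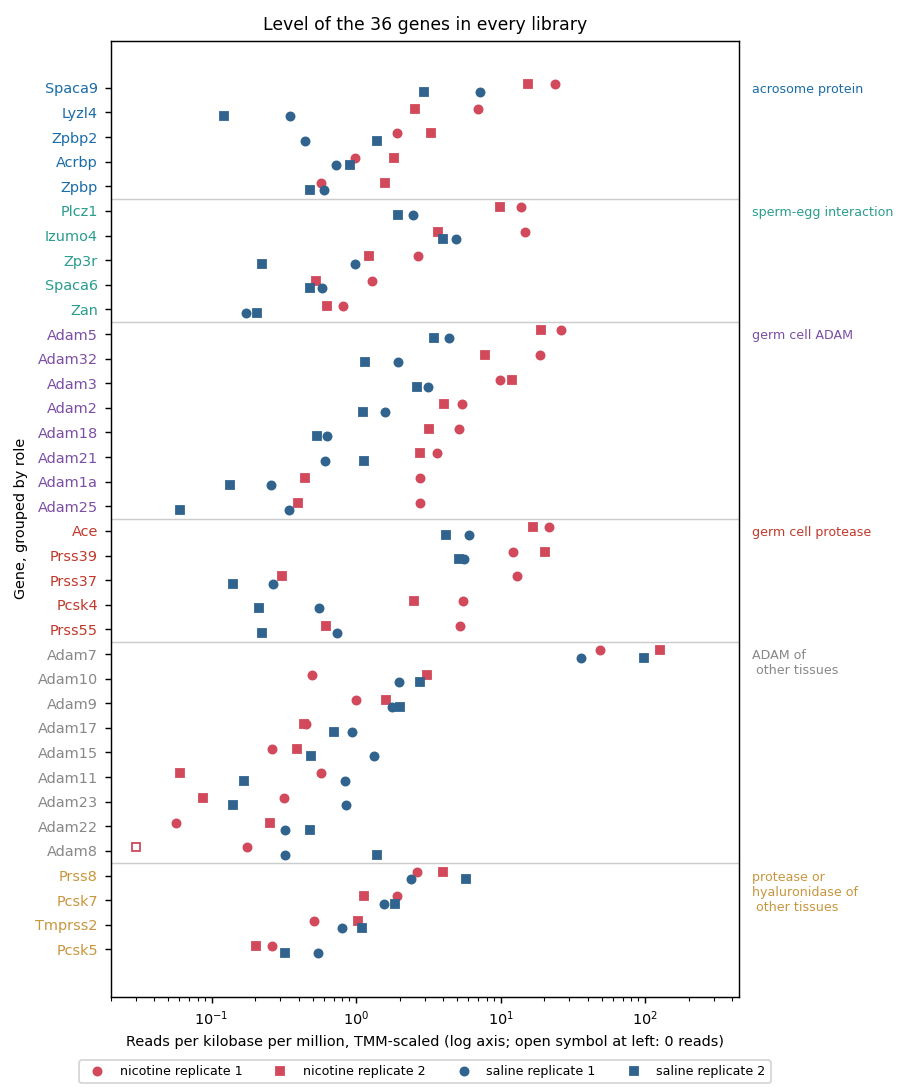
Level per length (horizontal log axis, TMM-scaled RPKM) of each of the 36 genes in nicotine replicates 1 and 2 and saline replicates 1 and 2, in rows grouped by role. Most germ cell genes have both nicotine points right of both saline points, whereas Adam7 has the highest level and its groups overlap.

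Among ADAMs of other tissues, 0 of 7 tested genes were called, a count too small to set apart from all tested genes (8.27% higher, 0.931% lower). Adam7 (ENSMUSG00000022056), an ADAM made by the epididymal epithelium and passed to sperm, was the most abundant of the 36 genes. It had 48.9 and 127 RPKM with nicotine and 35.9 and 98.8 with saline (0.38 ± 0.65, adjusted p = 0.772). Replicate 1 was low and replicate 2 high in each group, so the spread within groups exceeded the difference between them. Summed in CPM, the epididymal epithelium markers had the same order of libraries. Crisp1 gave most of each sum, with 1040 and 2740 CPM with nicotine and 653 and 1930 with saline. Spink8 and Wfdc10, the next highest, were lower in nicotine replicate 1 (120 and 69.8 CPM) than in saline replicate 1 (151 and 92.9). The remaining markers were also lower there, except Gpx5, Cftr and Cst8. Per 1000 reads on the whole marker list, mostly Crisp1, there were 136 and 128 Adam7 reads with nicotine and 131 and 136 with saline.

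The other ADAMs of this kind had 3.12 RPKM or less in every library. Adam10 and Adam17, sheddases that release membrane proteins, had log2 fold changes of -0.21 and -0.89 (adjusted p = 0.878 and 0.397). Adam15, a metalloprotease of endothelium and other tissues, had -1.35 (adjusted p = 0.284), and Adam22 and Adam23, adhesion proteins of the nervous system without protease activity, had -1.07 and -1.62 (adjusted p = 0.370 and 0.326). Both nicotine libraries of Adam15, Adam17, Adam22 and Adam9 lay below both saline libraries, an order that held for 31.0% of all tested genes. The values of Adam10 and Adam23 overlapped. Adam23 had 102 of its saline reads in replicate 1 and 16 in replicate 2. Adam8, an ADAM of leukocytes, had 1 and 0 reads with nicotine and 10 and 41 with saline, a scaled ratio of 0.0364 (95% counting interval 0.000905 to 0.212). It was not tested in the full set, and it was called lower only without nicotine replicate 1. Adam11, of the nervous system, had 4 and 2 reads with nicotine and 32 and 6 with saline, a ratio of 0.293 (0.101 to 0.700). Most of its saline reads lay in replicate 1. Its groups overlapped in scaled level, with 3.25 CPM in nicotine replicate 1 and 0.945 in saline replicate 2.

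The proteases of other tissues were Prss8, a membrane-anchored protease of epithelia, Tmprss2, a membrane protease of epithelia, and the proprotein convertases Pcsk5 and Pcsk7. Prss8 had 2.63 and 4.00 RPKM with nicotine and 2.41 and 5.78 with saline. Its groups overlapped, and its log2 fold change was -0.23 ± 0.60 (adjusted p = 0.855). The other 3 had log2 fold changes from -0.96 for Pcsk5 to -0.12 for Tmprss2, and 0 of the 4 were called. That count is too small to set apart from the 8.27% higher and 0.931% lower of all tested genes. Both nicotine libraries of Pcsk5 lay below both saline libraries, an order that held for 31.0% of all tested genes. Pcsk7 shares 8.54% of its 35-base words with genes on the opposite strand, among them Tagln of smooth muscle, and the strand setting of the counts was not given.

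Related genes outside the symbol rule were read from 3 lists. Of 12 tested genes for sperm-egg interaction 3 rose and 0 fell (against 8.27% higher and 0.931% lower of all tested genes), with a median log2 fold change of 0.67. Crisp2, a secretory protein of the acrosome, was one of them. Clgn, the testis chaperone that assembles fertilin, had 17 and 112 reads with nicotine and 28 and 12 with saline (2.47 ± 0.57, adjusted p = 0.0332). Llcfc1, a secreted factor needed for gamete fusion, had 48 and 114 reads with nicotine and 37 and 50 with saline (2.09 ± 0.54, adjusted p = 0.0384). The list also holds Crisp1, which is secreted by the epididymis and did not pass.

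Of 21 tested genes of acrosome formation 6 rose and 0 fell, beside the same 8.27% and 0.931% of all genes, with a median of 0.65. Actl7a, an actin-like protein beneath the acrosome, rose by 2.31 ± 0.48 (adjusted p = 0.0329), with 52 and 195 reads with nicotine and 48 and 51 with saline. Dpy19l2, which holds the acrosome to the nucleus, rose by 2.77 ± 0.62 (adjusted p = 0.0329), on 19 and 51 reads with nicotine and 14 and 8 with saline. Fam71f1 and Ccdc136, both needed for acrosome formation in mice, rose by 3.68 ± 0.78 and 2.70 ± 0.62 (adjusted p = 0.0329 and 0.0332). Hook1, a microtubule-binding protein of the spermatid manchette, and Ropn1, of the fibrous sheath of the tail, were the other calls.

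Of 12 tested genes of acrosomal exocytosis 4 rose and 0 fell, beside 8.27% and 0.931% of all genes, with a median of 1.66. The 4 that rose are all subunits of CatSper, the calcium channel of the sperm tail. They were Catsperg1 (2.92 ± 0.52, adjusted p = 0.0329), Catsperg2 (2.43 ± 0.54, adjusted p = 0.0329), Catsper2 (2.04 ± 0.50, adjusted p = 0.0353) and Catsperb (2.29 ± 0.63, adjusted p = 0.0467). Catsperg1 and Catsperg2 are close paralogues, so their reads may be split. Without saline replicate 1 these 3 lists had 0, 1 and 0 genes higher, in the order given, when 0.152% of all genes were, and without saline replicate 2 they had 0 each, when 0.0% of all genes were, so the loss of calls was shared by nearly all genes.

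**Figure D5:**
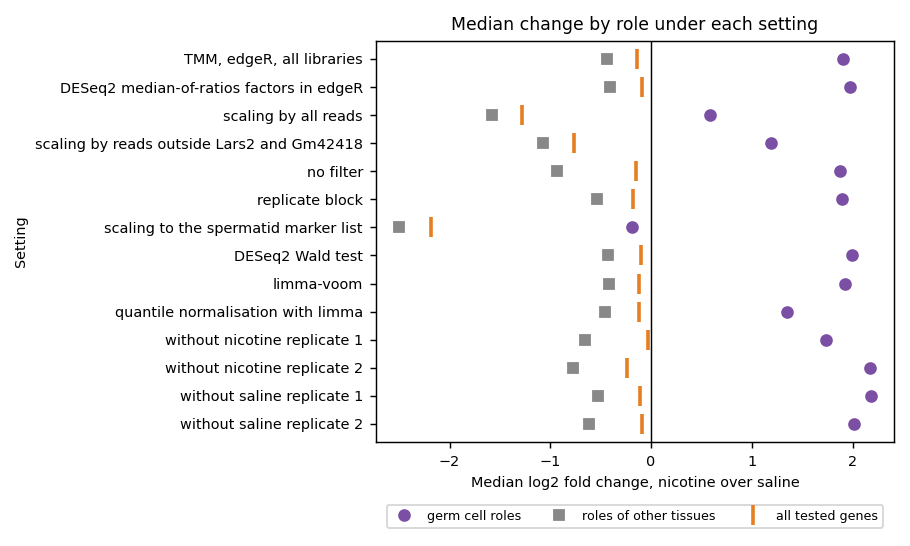
Median log2 fold change (horizontal axis, nicotine over saline) of the tested germ cell genes, the tested genes of other tissues and all tested genes under each setting (rows). The germ cell median lies right of the median of all genes in every row, but its own sign is negative when libraries are scaled to spermatid markers (-0.19). A new scaling shifts all genes nearly alike, so it could hardly change this order.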

How the data were processed

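RNA-seq of mouse spermatozoa was analysed in 4 libraries, 2 per group. The deposited tables hold 1 read number per gene, treated as an estimated count and rounded, and an RPKM value that the authors made from it. CASAVA, TopHat and the mm8 build are named in the submitters' processing notes, without versions; which counter and strand setting they used is not given in the sources used here. No genome of that build was used. Symbols came from a gene name table (8688 of 8699 IDs matched).

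Reads were tested with edgeR 4.0.16 (R 4.3.3): filterByExpr with a minimum count of 10, TMM scaling, glmQLFit with group as the only term, and Benjamini-Hochberg adjustment over 8375 genes, called at 0.05. Standard errors were obtained from the fold change and the square root of its F statistic. RPKM was recomputed from reads, gene length and TMM-scaled library size. A floor of 3 counts equals 2.43 and 0.517 CPM in nicotine replicates 1 and 2 and 0.447 and 0.473 CPM in the saline replicates. Exact intervals cover counting error only. Shared sequence was counted as 35-base words of GENCODE M21 transcripts. The code was tested on simulated data. The alternatives were other scalings, no filter, the replicate number as a block, each library left out, DESeq2 1.42.0 and limma 3.58.1.

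The members, roles and lists were chosen with earlier results of these data known. All members are described, and called members are given in full; of each further list, at most 4 called genes with the smallest p are named with values. Protein sequences were not used here.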

Additional observations from a re-analysis of the deposited data

How the results depend on the processing

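Only 2 libraries per group and few reads in nicotine replicate 1 limit precision; where 1 library is left out, its partner is assumed to vary like the other group. Scaling by all reads, by reads outside Lars2 and Gm42418, and to the spermatid markers (chosen after seeing the data) gave 0, 0 and 18 higher and 9, 0 and 6023 lower genes, with medians of -1.28, -0.77 and -2.18. The cause was not tested. For the 30 tested of the 36 genes these gave 0 higher each, 11 lower with the spermatid markers, and medians of 0.14, 0.69 and -0.67; germ cell medians were 0.58, 1.19 and -0.19, and medians of other tissues -1.58, -1.07 and -2.50, with 11 lower in the last. The lists for egg interaction, formation and exocytosis had 0 higher with each, except 1 for formation with the spermatid markers, which gave 6, 9 and 4 lower. The sign turned with the spermatid markers for Ace (-0.14), Acrbp (-1.15), Adam2 (-0.26), Adam21 (-0.28), Adam3 (-0.10), Adam7 (-1.76), Izumo4 (-1.23), Prss39 (-0.41), Spaca6 (-1.44), Spaca9 (-0.08), Zan (-0.19), Zp3r (-0.45), Zpbp (-0.84) and Zpbp2 (-0.51); by all reads for Acrbp (-0.18), Adam7 (-0.51), Izumo4 (-0.75) and Spaca6 (-0.81); by reads outside the pair for Adam7 (-0.20) and Spaca6 (-0.10). Quantile normalisation gave medians of 0.89 (36 genes) and 1.35 (germ cell), 124 genes lower, 5 higher for egg interaction, Adam7 -0.64 and Tmprss2 0.08; limma-voom gave 46 lower, Prss8 0.00 and Tmprss2 0.06. DESeq2's test and its factors in edgeR gave a median of all genes of -0.10 and -0.09, and no filter gave -0.93 for other tissues. With the replicate block, 1078 genes were higher and 279 lower (median -0.18), other tissues had -0.54, egg interaction had 5 higher, and 12 of the 36 were higher, Adam2, Prss39 and Spaca9 being added. The labels do not say that numbers pair libraries, and the replicate differences of the groups correlated at 0.186 over genes. Leaving out each library gave 0 to 1515 genes higher, 9 to 824 lower and medians of -0.24 to -0.03. Of the 32 to 34 then tested of the 36, 0 to 15 were higher and 0 to 1 lower, medians 1.10 to 1.30; germ cell genes had 0 to 15 higher, and other tissues 0 to 1 lower with medians of -0.78 to -0.53. The lists had 0 to 5, 0 to 8 and 0 to 7 higher and 0 to 1, 0 to 1 and 0 lower. Single genes that changed sign ranged, over the libraries left out, from -2.18 to 0.41 (Adam10, positive without nicotine replicate 1), -0.26 to 1.78 (Izumo4, negative without nicotine replicate 1), -0.81 to 0.14 (Tmprss2, 0.14 without nicotine replicate 1 and 0.06 without saline replicate 2), -0.58 to 0.23 (Pcsk7, positive without nicotine replicate 2), -0.41 to 1.27 (Adam7, -0.41 without nicotine replicate 2 and -0.19 without saline replicate 1), -2.47 to 0.27 (Adam23, positive without saline replicate 1) and -0.77 to 0.48 (Prss8, positive without saline replicate 2).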
